A study of Mus musculus with 12 samples.

Results

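Collagen chain genes are the genes whose symbol in the probe annotation reads Col, a number, the letter a and a number (such as Col6a1). Each codes for an alpha chain of a collagen or of a collagen-like protein. Of the 19087 named genes measured on these arrays 42 had such a symbol, and 83 of the 41230 measured features (array spots that each hold a single probe) belonged to them. A single feature was present for 14 of the genes, 2 features for 17, 3 features for 9 and 4 features for 2. The reference annotation lists 44 such genes, and Col6a3 and Col6a5 were not analysed here.
Collagen alpha chains wind around each other to a triple helix. The chains are hydroxylated and glycosylated in the endoplasmic reticulum, held by chaperones, secreted as procollagens, trimmed and crosslinked outside the cell. Fibrillar collagens build the ropes of connective tissue, collagen IV the sheet of basement membranes and collagen VI beaded filaments, whereas fibril-associated collagens decorate fibrils and transmembrane collagens stay at the cell surface. The parenchyma of the brain holds little fibrillar collagen, and most collagen of the brain lies in the meninges and in the basement membranes of vessels.
The cells were Oli-neu, an oligodendroglial line of the mouse that here stably carried the proteolipid protein PLP fused to EGFP. RNA after 16 h in conditioned neuronal medium (medium of neuron-enriched primary cultures) was hybridised against RNA of untreated parallel cultures on 6 Agilent 2-colour mouse arrays. RNA after 16 h with the small molecule Y27632 was hybridised against RNA of untreated parallel cultures on 6 further arrays. In each experiment the treated RNA was in Cy3 on 3 arrays and in Cy5 on the other 3, so that all groups share the cell line, its transgene and the culture time.
The channel labels of the first experiment name neurons rather than conditioned medium, the design text places neurons in both arms of the second, and the labels end the number of the compound in another digit. The description in the methods is used here. Arrays of an experiment are called technical replicates by the submitters, and no source used here says that they came from separate cultures. The p-values therefore measure only how far these arrays spread, and that spread may be technical. Each value is a log ratio of treated over untreated in units of the standard deviation of all log ratios of its array (SD units), since the base of the log and the scaling are not given in the sources used here. The level of a gene cannot be read from such values. The direction was set by the gene lists of the study, in which genes called up had negative deposited values, so that all signs were reversed here. Pairs of arrays with the same dye orientation had r between 0.859 and 0.890 over all features with conditioned neuronal medium and between 0.731 and 0.809 with Y27632. Pairs of opposite orientation had r from 0.249 to 0.296 with conditioned neuronal medium and from -0.262 to -0.120 with Y27632, and a dye term was therefore part of every fit.

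Of the 42 collagen chain genes 17 rose (40.5%) and 13 fell (31.0%) with conditioned neuronal medium, while 12 did not pass (limma, adjusted p under 0.05 over all 19087 genes). Of all genes 27.6% rose and 36.7% fell in this comparison. With Y27632, 18 collagen chain genes rose (42.9%) and 7 fell (16.7%), while 17 did not pass, and of all genes 20.5% rose and 19.5% fell. The 7 that fell with Y27632 became 4 without replicate 1 or 5, 3 without replicate 6 and 2 without the dye term, and without that term the 18 that rose became 11. The median of the collagen chain genes was 0.03 SD units with conditioned neuronal medium, beside -0.08 for all genes, and 0.20 with Y27632, beside -0.01 for all genes. Single members ranged from -1.35 to 2.00 SD units with conditioned neuronal medium and from -0.72 to 1.82 with Y27632.
Large values of the collagen chain genes were mostly positive. In conditioned neuronal medium, 5 members that passed lay at 1 SD unit or more above 0 (11.9%, beside 4.95% of all genes) and 1 at 1 SD unit or more below 0 (2.38%, beside 5.29% of all genes). The 5 were Col20a1, Col9a1, Col11a1, Col17a1 and Col18a1, and the 1 below was Col16a1. With Y27632, 7 members reached 1 SD unit above 0 (16.7%, beside 3.19% of all genes) and 0 reached it below (beside 2.68% of all genes). The 7 were Col6a1, Col27a1, Col24a1, Col11a1, Col6a2, Col2a1 and Col4a2. Values stayed above 0 on all 6 arrays for 14 members with conditioned neuronal medium (33.3%, beside 16.3% of all genes) and below 0 for 8 (19.0%, beside 18.1%). With Y27632, they stayed above 0 for 11 members (26.2%, beside 10.8% of all genes) and below 0 for 4 (9.52%, beside 9.87%).
The orientation means of a gene, over the 3 arrays with treated RNA in the same dye, had opposite signs for 5 of the 30 members that passed with conditioned neuronal medium, namely Col4a1, Col4a5, Col6a6, Col9a2 and Col23a1. The same held for 6 of the 25 members that passed with Y27632, namely Col1a2, Col4a4, Col5a3, Col10a1, Col23a1 and Col28a1. Each of these 11 calls was lost without the dye term.

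**Figure D1:**
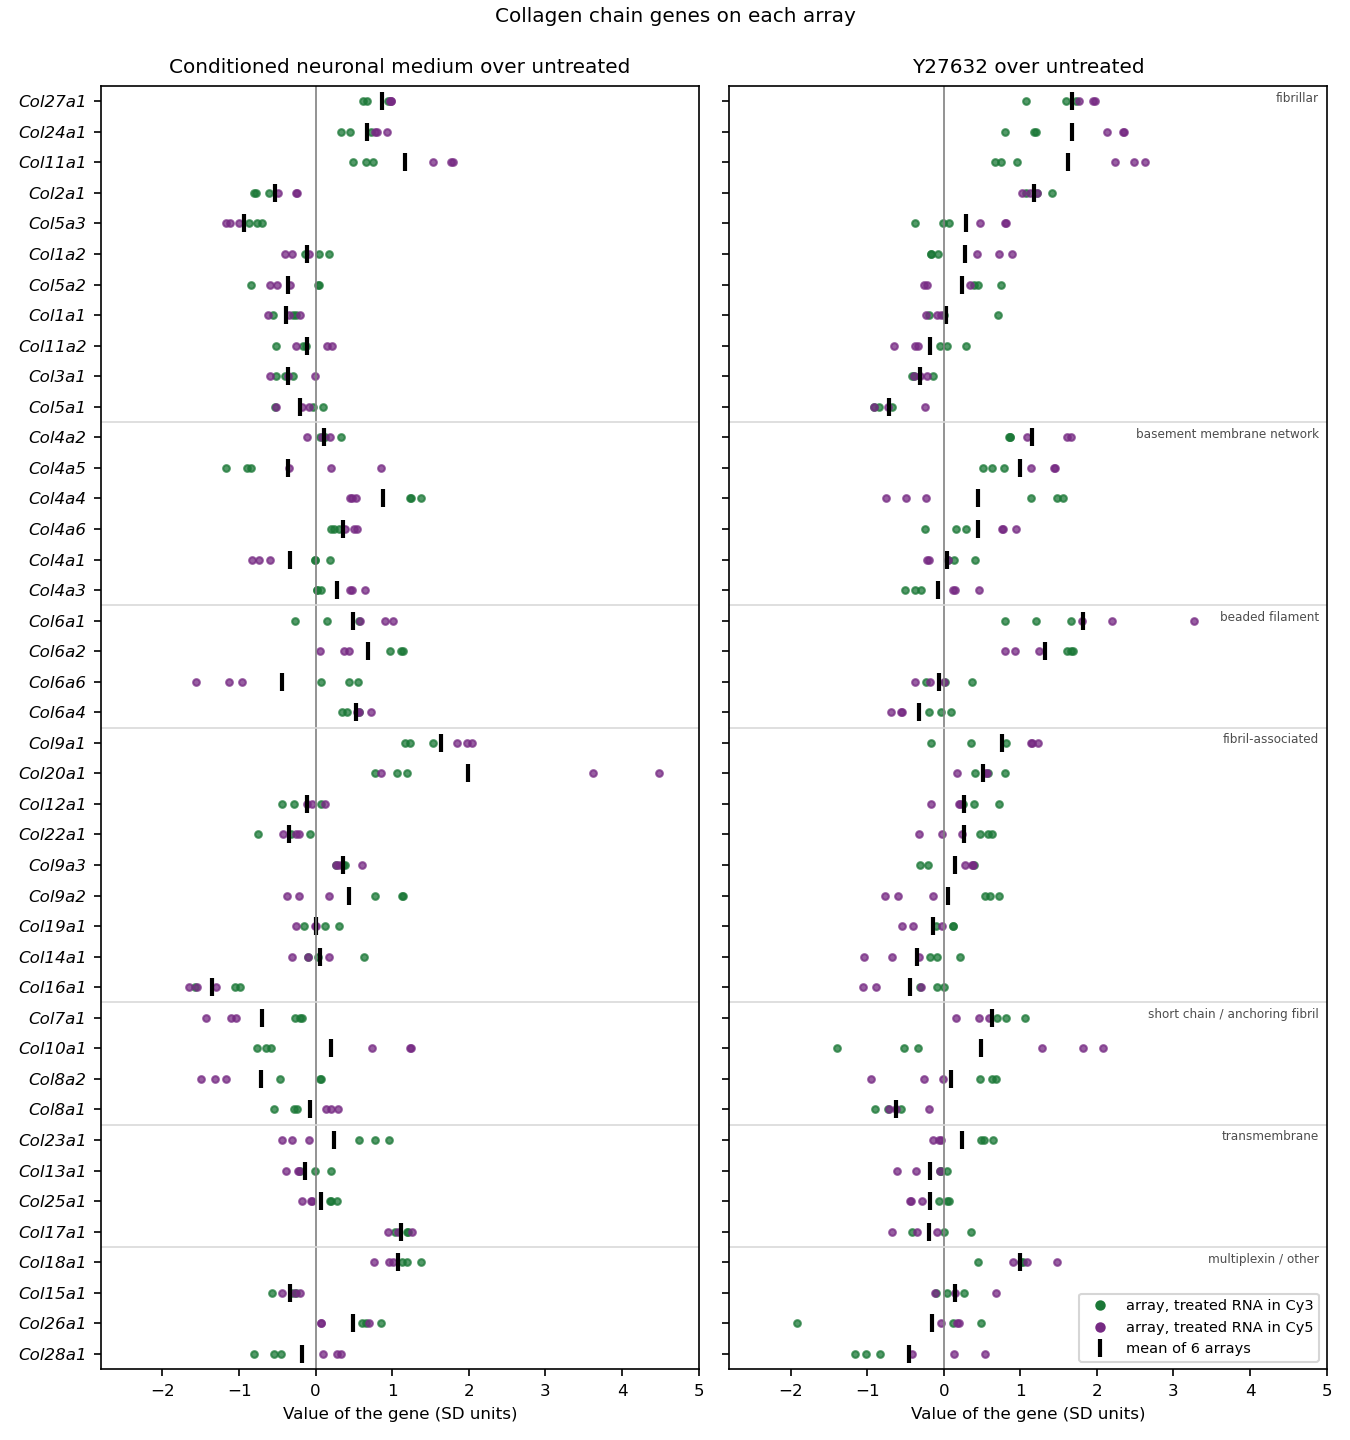
Each point is a collagen chain gene on a single array (horizontal axis, value of the gene in SD units, treated over untreated), coloured by the dye of the treated RNA, and each black bar is the mean of 6 arrays; genes are grouped by collagen class and ordered by the Y27632 value. The 6 points of Col17a1 with conditioned neuronal medium lie between 0.95 and 1.26, whereas those of Col20a1 reach from 0.77 to 4.48.

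Among the fibrillar collagens, 3 of 11 genes rose and 5 fell with conditioned neuronal medium, and 6 rose and 2 fell with Y27632. These and the following counts by class stand beside all-gene shares of 27.6% up and 36.7% down with conditioned neuronal medium and of 20.5% up and 19.5% down with Y27632. The 3 that rose with conditioned neuronal medium, Col11a1, Col24a1 and Col27a1, also rose with Y27632. Col11a1 codes for a chain of collagen XI, which sits inside cartilage fibrils and limits their width. Its values in conditioned neuronal medium were 0.48, 0.74 and 0.66 SD units on the arrays with treated RNA in Cy3, against 1.54, 1.77 and 1.80 on those in Cy5, a mean of 1.17 ± 0.60 (SD, n = 6 arrays; limma adjusted p = 1.9e-06). With Y27632 they were 2.63, 2.48 and 2.24 in Cy5 and 0.67, 0.96 and 0.75 in Cy3, a mean of 1.62 ± 0.92 (limma adjusted p = 1.4e-05). As means over its features, all 12 values of Col11a1 lay above 0. In both experiments the arrays with treated RNA in Cy5 were the higher ones without overlap. Its 4 features stood at 1.85, 1.53, 0.81 and 0.47 with conditioned neuronal medium and, in the same feature order, at 1.97, 2.74, 0.78 and 1.00 with Y27632. The last of these features had orientation means of opposite sign in both experiments. They were -0.25 in Cy3 and 1.20 in Cy5 with conditioned neuronal medium, and -0.40 and 2.39 with Y27632. The lowest Y27632 array of the feature before it was at -0.29.
Col24a1 and Col27a1 code for the chains of collagens XXIV and XXVII, fibrillar collagens with short interruptions in the helix that are known from bone and cartilage. Col24a1 had 0.73, 0.33, 0.45, 0.93, 0.78 and 0.80 SD units with conditioned neuronal medium (mean 0.67 ± 0.23, limma adjusted p = 6.5e-05) and 2.14, 2.35, 2.34, 1.18, 1.20 and 0.80 with Y27632 (mean 1.67 ± 0.68, limma adjusted p = 1.3e-05). Col27a1 had 0.62, 0.66, 0.94, 0.98, 0.98 and 0.98 with conditioned neuronal medium (mean 0.86 ± 0.17, limma adjusted p = 9.5e-06) and 1.77, 1.95, 1.98, 1.73, 1.59 and 1.07 with Y27632 (mean 1.68 ± 0.33, limma adjusted p = 2.1e-05). The 2 experiments overlapped for Col24a1 and did not for Col27a1. For both genes a single feature stood far above the rest. That of Col24a1 was at 1.52 with conditioned neuronal medium and 3.22 with Y27632, while its other feature was at -0.18 and 0.12. That of Col27a1 was at 1.97 with conditioned neuronal medium and 3.45 with Y27632, while its other 2 were at 0.33 and 0.28 with conditioned neuronal medium and at 1.08 and 0.51 with Y27632.
Col2a1, the chain of the main cartilage collagen, moved in opposite directions. Its values were -0.79, -0.81, -0.60, -0.26, -0.24 and -0.49 SD units with conditioned neuronal medium, a mean of -0.53 ± 0.25 (SD, n = 6 arrays; limma adjusted p = 1.7e-04). With Y27632 they were 1.21, 1.13, 1.02, 1.41, 1.08 and 1.22, a mean of 1.18 ± 0.14 (limma adjusted p = 4.0e-05). All 6 arrays lay below 0 in the first experiment and all 6 above 0 in the second, and both dye orientations gave the same sign. Its 3 features stood at -0.61, -0.66 and -0.33 with conditioned neuronal medium and at 1.85, 1.29 and 0.39 with Y27632, so that all of them differed in sign between the experiments. All 3 were called lower with conditioned neuronal medium, and 2 were called higher with Y27632.
The genes of the common interstitial collagens had small means, which for Col1a2 in both experiments and for Col1a1 with Y27632 averaged features of opposite sign. Col1a1 and Col1a2 code for the 2 chains of collagen I, the most abundant collagen of connective tissue. Col1a1 had -0.30, -0.26, -0.56, -0.20, -0.35 and -0.62 SD units with conditioned neuronal medium (mean -0.38 ± 0.17, limma adjusted p = 0.0027) and 0.03 ± 0.35 with Y27632 (limma adjusted p = 0.87). Col1a2 had -0.12 ± 0.21 with conditioned neuronal medium (limma adjusted p = 0.20) and 0.27 ± 0.47 with Y27632 (limma adjusted p = 0.042), where the orientation means were -0.13 in Cy3 and 0.68 in Cy5. The call of Col1a2 with Y27632 was lost without replicate 1, 3, 4, 5 or 6, with values from 0.22 to 0.34 over all 6 omissions. The features of Col1a2 were called in opposite directions, at 0.40 and -0.63 with conditioned neuronal medium and at 1.11 and -0.56 with Y27632, and those of Col1a1 stood at -0.31, -0.46 and -0.38 with conditioned neuronal medium and at 0.77, -0.34 and -0.33 with Y27632. As gene means, the 2 chains of collagen I did not pass together in either experiment. Col3a1, the chain of collagen III that accompanies collagen I, fell to -0.36 ± 0.21 with conditioned neuronal medium (limma adjusted p = 0.0054) and to -0.31 ± 0.11 with Y27632 (limma adjusted p = 0.020), a call that was lost without replicate 1, 5 or 6.
Collagen V starts the assembly of collagen I fibrils, and its 3 chain genes, named here after their values were seen, had means below 0 with conditioned neuronal medium and of both signs with Y27632. Col5a3 fell to -0.94 ± 0.19 with conditioned neuronal medium (limma adjusted p = 3.9e-06), with all 6 arrays between -1.17 and -0.70. With Y27632 it stood at 0.30 ± 0.48 (limma adjusted p = 0.043), and the call was lost without replicate 2, 3, 5 or 6. Col5a1 stood at -0.21 ± 0.26 with conditioned neuronal medium (limma adjusted p = 0.098) and fell with Y27632 to -0.72 ± 0.25 (limma adjusted p = 0.0012). Col5a2 fell to -0.37 ± 0.36 with conditioned neuronal medium (limma adjusted p = 0.025, lost without replicate 5 or 6) and stood at 0.24 ± 0.39 with Y27632 (limma adjusted p = 0.11). The last fibrillar gene, Col11a2, did not pass in either experiment.

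All 6 genes of the basement membrane collagen IV were measured. With conditioned neuronal medium 3 rose and 2 fell, and with Y27632 4 rose and 0 fell. The genes lie in the genome in pairs that start back to back, Col4a1 with Col4a2, Col4a3 with Col4a4, and Col4a5 with Col4a6. The proteins of the first pair form the trimer found in most basement membranes, and those of the other genes form the trimers of specialised membranes such as that of the kidney glomerulus.
The genes of the first pair differed in their calls. With conditioned neuronal medium Col4a2 stood at 0.11 ± 0.15 (SD, n = 6 arrays; limma adjusted p = 0.21) and Col4a1 at -0.33 ± 0.44 (limma adjusted p = 0.0025), and the orientation means of Col4a1 were 0.06 in Cy3 and -0.72 in Cy5. Col4a2 had 1.66, 1.08, 1.61, 0.86, 0.86 and 0.87 SD units with Y27632, all above 0, with a mean of 1.16 ± 0.38 (limma adjusted p = 8.3e-05). Col4a1 had -0.19, -0.21, 0.06, 0.14, 0.06 and 0.40 with Y27632, a mean of 0.04 ± 0.23 (limma adjusted p = 0.74). The lowest array of Col4a2 was thus above the highest array of Col4a1. The Y27632 value of Col4a2 came from 1 of its 2 features, which was at 2.35, 2.24, 2.53, 1.81, 2.06 and 1.98, while the other was at 0.15 ± 0.54 and did not pass. The 3 features of Col4a1 stood at -0.10, -0.05 and 0.27 with Y27632, and none of them passed.
The RefSeq promoter windows of both genes (GRCm38.p6, 250 bases before the start and 50 from the start on) are shown because their starts lie 21 bases apart on opposite strands of chromosome 8 and the windows share 78 bases. Each is written 5′ to 3′ on the strand of its gene, Col4a2 at chr8:11312555-11312854 on the plus strand and Col4a1 at chr8:11312777-11313076 on the minus strand. Capitals mark CCAAT or its reverse complement.
Col4a2: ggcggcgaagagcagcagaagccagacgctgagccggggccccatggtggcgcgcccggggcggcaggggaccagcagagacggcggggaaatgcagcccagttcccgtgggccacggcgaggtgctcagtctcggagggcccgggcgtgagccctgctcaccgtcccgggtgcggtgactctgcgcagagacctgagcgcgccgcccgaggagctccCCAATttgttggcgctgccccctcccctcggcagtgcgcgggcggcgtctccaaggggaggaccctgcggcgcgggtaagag
Col4a1: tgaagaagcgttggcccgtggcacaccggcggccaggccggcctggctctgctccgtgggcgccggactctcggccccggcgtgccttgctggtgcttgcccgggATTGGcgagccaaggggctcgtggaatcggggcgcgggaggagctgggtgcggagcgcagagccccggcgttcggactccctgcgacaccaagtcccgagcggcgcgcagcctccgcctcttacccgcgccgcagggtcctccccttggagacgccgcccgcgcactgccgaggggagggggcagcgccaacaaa
The 3 windows that follow belong to genes among the 4 members highest with Y27632, namely Col6a1 at chr10:76725995-76726294 on the minus strand, Col11a1 at chr3:114030290-114030589 on the plus strand and Col27a1 at chr4:63215162-63215461 on the plus strand.
Col6a1: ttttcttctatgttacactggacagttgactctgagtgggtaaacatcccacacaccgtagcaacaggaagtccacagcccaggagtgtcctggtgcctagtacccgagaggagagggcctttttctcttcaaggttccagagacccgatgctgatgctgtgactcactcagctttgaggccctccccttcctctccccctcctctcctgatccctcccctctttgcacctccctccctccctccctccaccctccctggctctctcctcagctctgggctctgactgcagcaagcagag
Col11a1: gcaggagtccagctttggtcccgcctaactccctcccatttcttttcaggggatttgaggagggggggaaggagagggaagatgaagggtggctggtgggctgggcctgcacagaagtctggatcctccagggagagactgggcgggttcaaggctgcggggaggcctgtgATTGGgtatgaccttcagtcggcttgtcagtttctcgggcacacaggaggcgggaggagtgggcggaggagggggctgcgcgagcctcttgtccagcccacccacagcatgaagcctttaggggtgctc
Col27a1: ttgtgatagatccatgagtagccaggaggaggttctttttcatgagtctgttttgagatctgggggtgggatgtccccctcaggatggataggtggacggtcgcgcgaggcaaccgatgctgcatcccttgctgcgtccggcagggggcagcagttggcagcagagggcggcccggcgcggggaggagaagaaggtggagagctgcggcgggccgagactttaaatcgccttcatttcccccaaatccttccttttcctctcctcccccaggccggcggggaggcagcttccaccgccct
Both strands of every window were searched for TATAAA (the TATA box), CCAAT (the CCAAT box, which many collagen genes carry), AACAAT (a core bound by Sox factors), GGAATG (a core bound by TEAD factors) and the CArG box (bound by SRF), and matches of different motifs can overlap or lie within a CArG box. Windows were found for 33 of the 42 members, some with more than 1 start, in all 36 windows, beside 32851 windows of all genes. CCAAT was in 13 of the member windows (36.1%) and in 37.4% of all windows, and of the 5 windows shown it was in those of Col4a2, Col4a1 and Col11a1. TATAAA was in 5 member windows (13.9%, beside 13.6% of all), GGAATG in 5 (13.9%, beside 14.7%), AACAAT in 1, that of Col3a1 (2.78%, beside 10.7%), and the CArG box in 1, that of Col6a4 (2.78%, beside 1.63%). The windows of Col6a1 and Col27a1 held none of these letters, and the shares of member windows are close to those of all windows, apart from AACAAT, where 1 window was found. These matches describe the letters only.
In the second pair, Col4a4 rose with conditioned neuronal medium, at 1.24, 1.23, 1.38, 0.45, 0.52 and 0.47 SD units (mean 0.88 ± 0.44, limma adjusted p = 4.6e-06). Of its 2 features, which were at 1.59 and 0.17 there, 1 was called higher. With Y27632 Col4a4 stood at -0.23, -0.49 and -0.76 in Cy5 and at 1.48, 1.56 and 1.14 in Cy3. Its mean of 0.45 ± 1.06 with Y27632 (limma adjusted p = 0.0096) thus joined orientations of opposite sign. Col4a3 had a mean of 0.28 ± 0.28 with conditioned neuronal medium (limma adjusted p = 0.0048), where its 3 features were at 0.86, 0.49 and -0.52 and each passed, and of -0.07 ± 0.37 with Y27632 (limma adjusted p = 0.54).
In the pair of the X chromosome, whose starts lie 1343 bases apart, Col4a5 rose with Y27632 and Col4a6 rose in both experiments. Col4a5 had -0.84, -0.90, -1.17, 0.20, -0.35 and 0.86 SD units with conditioned neuronal medium, a mean of -0.37 ± 0.77 (limma adjusted p = 0.042). This call was lost without replicate 1, 2, 3, 4 or 5, with values from -0.52 to -0.22 over all 6 omissions. With Y27632 the gene had 1.44, 1.15, 1.46, 0.79, 0.62 and 0.51, all above 0 (mean 0.99 ± 0.41, limma adjusted p = 9.6e-05). Col4a6 stood at 0.36 ± 0.13 with conditioned neuronal medium (limma adjusted p = 0.0010) and at 0.45 ± 0.45 with Y27632 (limma adjusted p = 0.0074). With Y27632 its orientation means were 0.07 in Cy3 and 0.82 in Cy5, and 1 of its 3 features was called higher. This Y27632 call was lost without the dye term (limma adjusted p = 0.17), with the median of the features (0.095) and in Cy3 alone (0.70).

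Of the beaded filament collagens 4 genes were measured. Col6a1 and Col6a2 code for the chains that join a further chain in the common form of collagen VI, and both rose in both experiments. With conditioned neuronal medium the call of Col6a1 was lost without the dye term (limma adjusted p = 0.077). It was also lost in Cy3 alone (0.15, limma adjusted p = 0.48), and that of Col6a2 in Cy5 alone (0.29, limma adjusted p = 0.065). Col6a1, measured by a single feature, had 0.56, -0.27, 0.15, 0.58, 0.90 and 1.00 SD units with conditioned neuronal medium, a mean of 0.49 ± 0.48 (SD, n = 6 arrays; limma adjusted p = 0.0043). With Y27632 it had 3.26, 2.19, 1.80, 0.80, 1.66 and 1.21, the highest mean of all members there at 1.82 ± 0.86 (limma adjusted p = 2.1e-04). The experiments overlapped for Col6a1 in the array at 0.80 with Y27632. Col6a2 had 1.11, 0.97, 1.15, 0.43, 0.37 and 0.06 with conditioned neuronal medium (mean 0.68 ± 0.45, limma adjusted p = 5.7e-05) and 0.80, 0.93, 1.25, 1.61, 1.68 and 1.66 with Y27632 (mean 1.32 ± 0.39, limma adjusted p = 2.8e-05). All 12 arrays of Col6a2 were above 0, and in both experiments the arrays with treated RNA in Cy3 were the higher ones, the opposite of Col6a1. The features of Col6a2 were at 1.43 and -0.07 with conditioned neuronal medium and at 2.08 and 0.56 with Y27632.
Col6a4 and Col6a6 code for longer chains that can stand in for the third one. Col6a4 rose to 0.52 ± 0.13 with conditioned neuronal medium (limma adjusted p = 1.5e-04) and stood at -0.32 ± 0.32 with Y27632 (limma adjusted p = 0.017), where the orientation means were -0.04 in Cy3 and -0.60 in Cy5 and the call was lost without replicate 6 (-0.28). Its 2 features were at 1.42 and -0.38 with conditioned neuronal medium and at 0.43 and -1.08 with Y27632, and all 4 of these values passed. Col6a6 stood at -0.43 ± 0.90 with conditioned neuronal medium (limma adjusted p = 0.0044), with orientation means of 0.35 in Cy3 and -1.22 in Cy5, and at -0.07 ± 0.26 with Y27632 (limma adjusted p = 0.65).

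Of the fibril-associated collagens 9 genes were measured, and 4 rose and 2 fell with conditioned neuronal medium, while 2 rose and 2 fell with Y27632. Col9a1, a chain of collagen IX on the surface of cartilage fibrils, had 1.53, 1.17, 1.23, 2.04, 1.98 and 1.85 SD units with conditioned neuronal medium. The mean was 1.63 ± 0.38 (SD, n = 6 arrays; limma adjusted p = 3.2e-07), the smallest adjusted p of all members in this experiment. With Y27632 Col9a1 had 1.14, 1.16, 1.24, 0.82, 0.36 and -0.17, a mean of 0.76 ± 0.56 (limma adjusted p = 0.0021). This Y27632 call was lost without the dye term (limma adjusted p = 0.061) and in Cy3 alone (0.34, limma adjusted p = 0.20). Col9a1 was measured by a single feature. The other chains of collagen IX rose less with conditioned neuronal medium, Col9a3 to 0.36 ± 0.13 (limma adjusted p = 0.0020) and Col9a2 to 0.44 ± 0.67 (limma adjusted p = 0.0029), the last with opposite orientation means of 1.01 in Cy3 and -0.14 in Cy5. With Y27632 neither passed, at 0.15 ± 0.32 for Col9a3 and 0.06 ± 0.65 for Col9a2.
Col20a1, the chain of collagen XX, had the highest mean of all members with conditioned neuronal medium, and the arrays disagreed on its size. Its only feature stood at 0.77, 1.06 and 1.19 SD units in Cy3 and at 4.48, 0.85 and 3.62 in Cy5, a mean of 2.00 ± 1.62 (limma adjusted p = 0.0016). Replicates 4 and 6 were thus more than 2 SD units above the other 4 arrays. With Y27632 it had 0.56, 0.54, 0.17, 0.58, 0.81 and 0.41, a mean of 0.51 ± 0.21 (limma adjusted p = 0.0038).
Col16a1, the chain of collagen XVI, was the lowest member with conditioned neuronal medium. Its values were -0.99, -1.58, -1.05, -1.30, -1.65 and -1.55 SD units, a mean of -1.35 ± 0.28 (limma adjusted p = 4.0e-06). Its features were at -1.81 and -0.89, and all 6 arrays and both features lay below 0. With Y27632 the mean was -0.44 ± 0.43 (limma adjusted p = 0.018), the features lay at -1.23 and 0.36, and the call was lost without replicate 1, 2 or 6 (lowest and highest value over all omissions -0.55 and -0.36).

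Of the remaining 12 members, the short chain collagens VIII and X and the anchoring fibril collagen VII form the first group, with 0 genes up and 2 down with conditioned neuronal medium and 2 up and 1 down with Y27632. Col7a1, which anchors epithelia to the tissue below and is named here after its values were seen, fell to -0.70 ± 0.55 SD units with conditioned neuronal medium (SD, n = 6 arrays; limma adjusted p = 4.5e-05) and rose to 0.63 ± 0.31 with Y27632 (limma adjusted p = 0.0013). All 6 arrays of Col7a1 were below 0 in the first experiment and above 0 in the second. The transmembrane collagens had 2 genes up and 0 down with conditioned neuronal medium and 1 up and 0 down with Y27632. Col17a1, the transmembrane collagen of hemidesmosomes, which hold skin cells to their basement membrane, had 1.21, 1.20, 1.03, 1.26, 1.07 and 0.95 with conditioned neuronal medium, a mean of 1.12 ± 0.12 (limma adjusted p = 2.1e-06). With Y27632 it had -0.35, -0.09, -0.67, -0.42, 0.01 and 0.36, a mean of -0.19 ± 0.36 (limma adjusted p = 0.26). The arrays of the 2 experiments did not overlap for this gene, and its 2 features were both called higher with conditioned neuronal medium, at 1.60 and 0.64.
The last group holds the multiplexins and other collagens, with 2 genes up and 1 down with conditioned neuronal medium and 1 up and 1 down with Y27632. Col18a1, a basement membrane collagen from which endostatin is cut, had 1.38, 1.20, 1.13, 1.01, 0.76 and 0.95 SD units with conditioned neuronal medium (mean 1.07 ± 0.21, limma adjusted p = 2.8e-06). With Y27632 it had 1.08, 1.48, 0.91, 1.03, 1.00 and 0.45 (mean 0.99 ± 0.33, limma adjusted p = 3.7e-04). All 12 arrays were above 0, and the features stood at 1.82 and 0.32 with conditioned neuronal medium and at 1.58 and 0.40 with Y27632. Col26a1 rose to 0.49 ± 0.33 with conditioned neuronal medium (limma adjusted p = 0.0019), as the mean of a feature at 1.53 ± 0.36 and a feature at -0.55 ± 0.87. With Y27632 these features stood at 0.59 ± 0.47 and -0.91 ± 1.47, and the gene at -0.16 ± 0.88 did not pass (limma adjusted p = 0.68).
Among the members not described above, Col23a1 rose and Col8a2, Col15a1 and Col22a1 fell with conditioned neuronal medium, and Col10a1 and Col23a1 rose and Col8a1, Col14a1 and Col28a1 fell with Y27632. With Y27632 the call of Col23a1 was lost on leaving out any single replicate, that of Col10a1 without replicate 1, 2, 5 or 6, that of Col14a1 without 2, 3, 4 or 5 and that of Col28a1 without 1, 5 or 6, and with conditioned neuronal medium that of Col23a1 was lost without replicate 1, 3 or 5. The orientation means had opposite signs for Col10a1, Col23a1 and Col28a1 with Y27632 and for Col23a1 with conditioned neuronal medium. Among these genes the values furthest from 0 were those of Col8a2 with conditioned neuronal medium, at -0.72 ± 0.70, and Col8a1 with Y27632, at -0.62 ± 0.24. Of the 2 features of Col8a1, at -1.23 and -0.01 with Y27632, 1 was called lower. The same held for the 2 features of Col15a1 with conditioned neuronal medium, at -0.68 and 0.00077. The orientation means of Col8a2 with conditioned neuronal medium were -0.11 in Cy3 and -1.32 in Cy5. Its call there was lost without the dye term (limma adjusted p = 0.063) and in Cy3 alone (limma adjusted p = 0.53). Col11a2, Col12a1, Col13a1, Col19a1 and Col25a1 passed in neither experiment.

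Features of the same gene often disagreed. Among the 28 members with several features, the highest and the lowest feature lay more than 1 SD unit apart in 12 with conditioned neuronal medium and in 14 with Y27632, with a median distance of 0.93 SD units with conditioned neuronal medium and 0.96 with Y27632. They lay more than 2 SD units apart for Col26a1 alone with conditioned neuronal medium and for Col24a1, Col27a1 and Col4a2 with Y27632. In 8 genes with conditioned neuronal medium and in 3 with Y27632, features of the same gene were called in both directions. Of the 83 features 30 were called higher and 31 lower with conditioned neuronal medium, and 29 higher and 14 lower with Y27632. Neither these feature calls nor the distances between features were counted over all features or genes of the arrays. They therefore describe the members only and do not set them apart from other genes. The values of a gene above are means over features that could not be assigned to its transcripts here, and the signal of each feature over background is unknown.

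**Figure D2:**
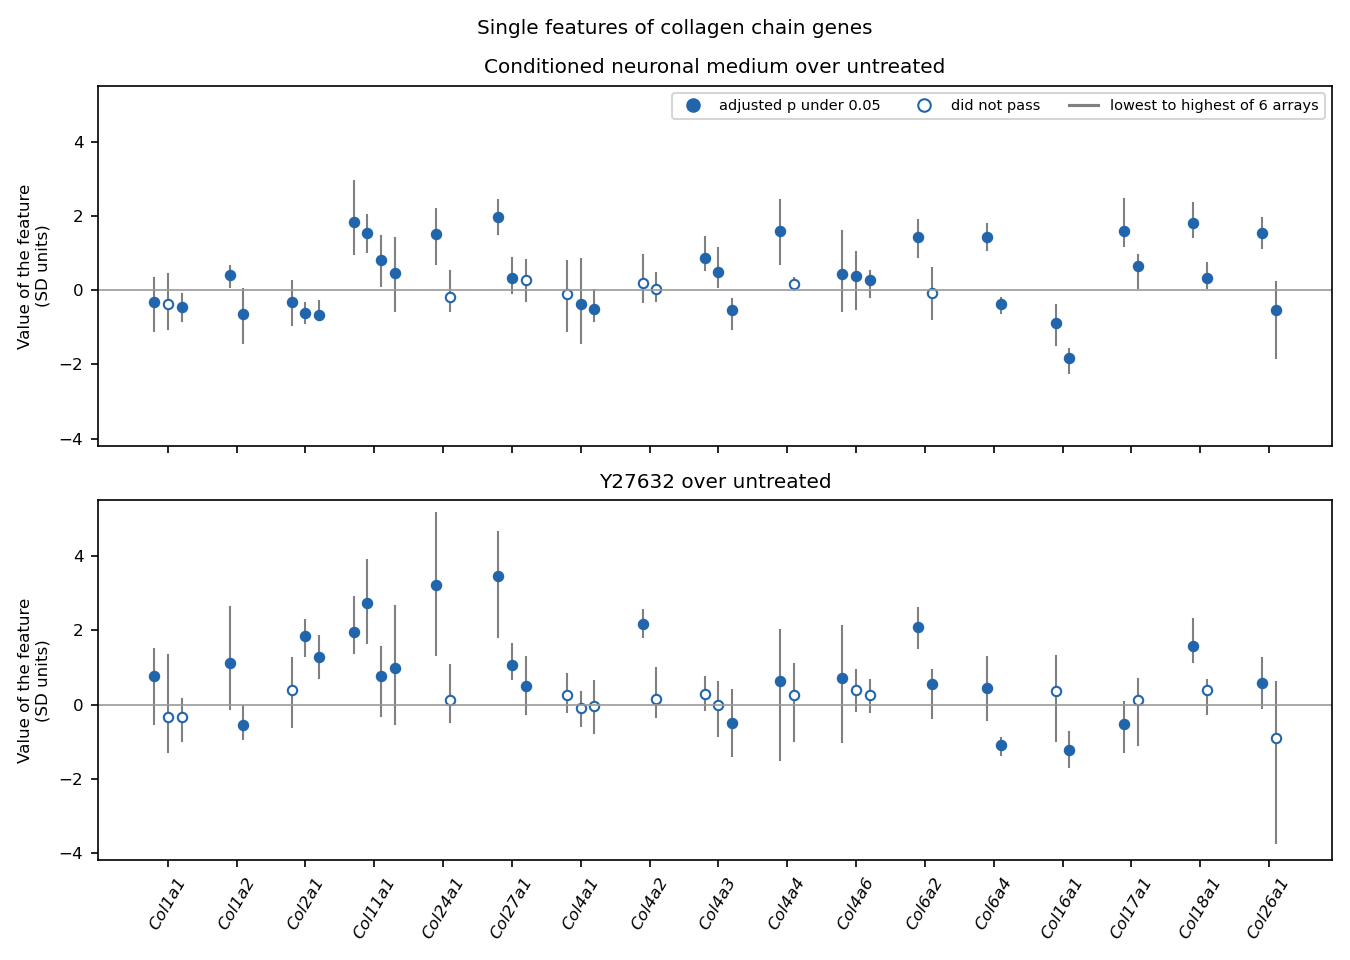
Each circle is a single feature of the collagen chain genes given in full that have several features (vertical axis, mean of 6 arrays in SD units, treated over untreated), filled where the adjusted p is under 0.05, with a line from the lowest to the highest of 6 arrays; the features of a gene stand in the same order in both panels. The first feature of Col24a1 and of Col27a1 stands at 3.22 and 3.45 with Y27632, far above the others of the gene.

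The difference between the treatments was tested itself in a limma fit over all 12 arrays. Of the 42 members 10 were higher with conditioned neuronal medium than with Y27632 (23.8%, beside 22.5% of all genes) and 19 were lower (45.2%, beside 27.6% of all genes), while 13 did not pass. The median difference was -0.19 SD units, beside -0.06 for all genes. An SD unit need not be of the same size in both experiments, and whether these used the same untreated RNA is not stated.
The members lower with conditioned neuronal medium than with Y27632 were led by Col2a1, with a difference of -1.71 ± 0.10 SD units (standard error; limma adjusted p = 4.8e-08). Col4a5 differed by -1.36 ± 0.18 (adjusted p = 3.8e-05), Col6a1 by -1.33 ± 0.25 (6.3e-04), Col7a1 by -1.33 ± 0.12 (1.3e-06), Col5a3 by -1.23 ± 0.11 (1.8e-06), Col4a2 by -1.04 ± 0.12 (1.5e-05) and Col24a1 by -1.0 ± 0.11 (1.3e-05). Col27a1, Col6a2 and Col11a1 rose in both experiments and still differed, by -0.82 ± 0.12 (adjusted p = 1.4e-04), -0.64 ± 0.11 (3.8e-04) and -0.46 ± 0.11 (0.0041). The difference of Col11a1 was lost without the dye term (adjusted p = 0.50) and on the arrays in Cy3 alone (adjusted p = 0.42). That of Col6a2 was lost without the dye term (adjusted p = 0.082).
Among the members higher with conditioned neuronal medium than with Y27632, Col17a1 differed by 1.31 ± 0.15 SD units (standard error; limma adjusted p = 1.1e-05), Col9a1 by 0.88 ± 0.15 (3.8e-04) and Col6a4 by 0.84 ± 0.10 (1.4e-05). Col20a1 differed by 1.48 ± 0.46 (0.017), a call that was lost without replicate 2, 3, 4 or 6, with values from 1.11 to 2.07 over all 6 omissions. Col18a1 differed by 0.08 ± 0.14 (0.67), Col4a6 by -0.09 ± 0.11 (0.54) and Col3a1 by -0.06 ± 0.12 (0.72), and none of these passed.

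**Figure D3:**
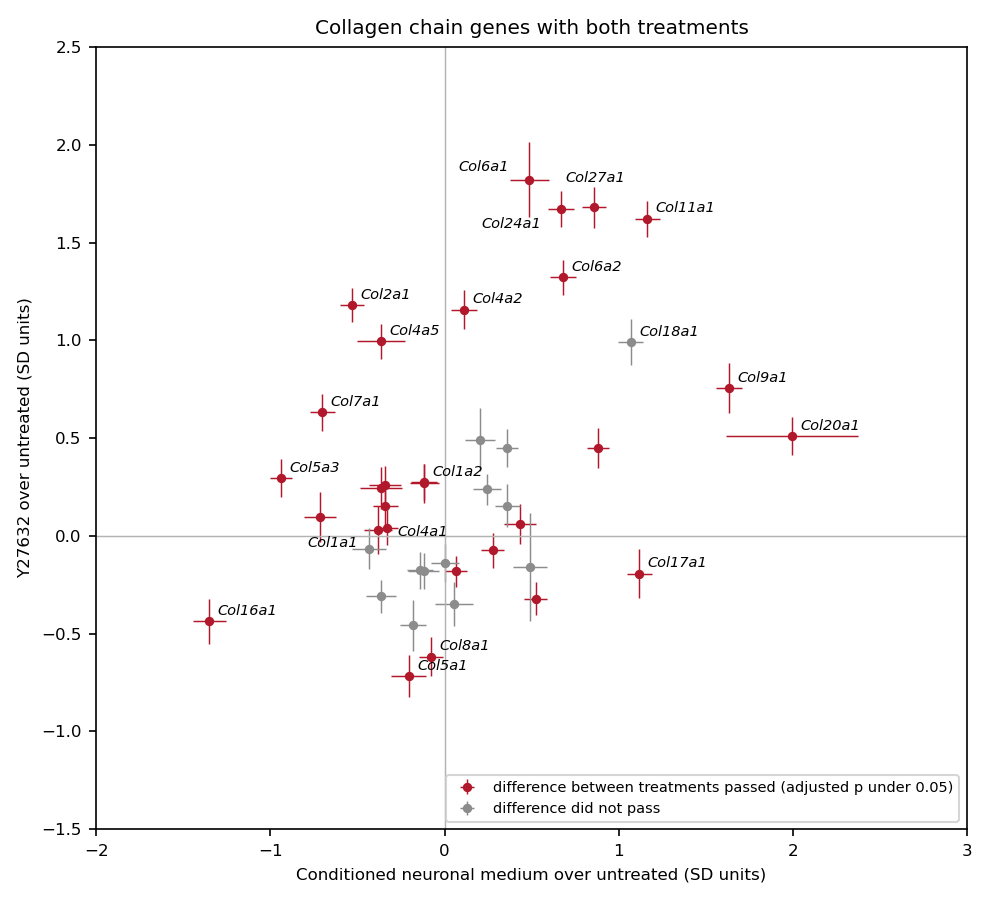
Each point is a collagen chain gene at its mean of 6 arrays with conditioned neuronal medium (horizontal axis) and with Y27632 (vertical axis), both in SD units over untreated, with standard errors from limma as bars and red where the difference between the treatments passed. Col2a1 stands at -0.53 and 1.18, Col17a1 at 1.12 and -0.19, and Col18a1, in grey, at 1.07 and 0.99.

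Genes that make, trim, bind and degrade collagens were counted by lists. Of 21 genes of collagen modification and folding, 5 rose and 11 fell with conditioned neuronal medium (median -0.25 SD units) and 9 rose and 2 fell with Y27632 (median 0.32). Among those that fell with conditioned neuronal medium, the orientation means had opposite signs for P4hb, P3h1, P3h2, P3h3, Ppib, Serpinh1 and Sec23a. The same held for Colgalt1 among those that rose there, and for P3h2, Plod3 and Mia3 among those that rose with Y27632. The lysyl hydroxylase genes Plod2 and Plod1 rose with Y27632 to 1.62 ± 0.44 and 1.25 ± 1.30 (SD, n = 6 arrays). The orientation means of Plod1 were 0.10 in Cy3 and 2.40 in Cy5, and those of Plod2 1.40 and 1.83. The collagen galactosyltransferase gene Colgalt1 rose with Y27632 to 1.05 ± 0.68. Sec23a, of the coat of vesicles that leave the endoplasmic reticulum, fell to -1.71 ± 0.89 with Y27632. In conditioned neuronal medium P4ha1, a catalytic subunit of prolyl 4-hydroxylase, fell to -1.16 ± 0.45, and Sec24d, of the same coat as Sec23a, to -0.67 ± 0.49. Colgalt2 and Mia3, of which Mia3 serves to load procollagen into vesicles, rose with conditioned neuronal medium to 0.87 ± 0.26 and 0.75 ± 0.31. Of all genes, too, more fell (36.7%) than rose (27.6%) with conditioned neuronal medium, and 20.5% rose and 19.5% fell with Y27632.
Of 14 genes of maturation and crosslinking, 2 rose and 4 fell with conditioned neuronal medium and 4 rose and 1 fell with Y27632. This count and those of the lists that follow stand beside the all-gene shares. These were 27.6% up and 36.7% down with conditioned neuronal medium, and 20.5% up and 19.5% down with Y27632. Of those called, Adamts3 with conditioned neuronal medium and Pcolce2, Loxl3 and Loxl4 with Y27632 had orientation means of opposite sign. Bmp1, the protease that removes the C-propeptide of fibrillar procollagens, rose to 0.60 ± 0.46 with conditioned neuronal medium and to 1.49 ± 0.47 with Y27632. Pcolce2, an enhancer of that protease, fell to -1.49 ± 1.09 with conditioned neuronal medium and stood at 0.70 ± 1.56 with Y27632, where the orientation means were -0.72 in Cy3 and 2.12 in Cy5. The lysyl oxidase-like gene Loxl2 fell to -1.30 ± 0.49 with Y27632. Of 10 genes of collagen receptors, 1 rose and 5 fell with conditioned neuronal medium and 2 rose and 2 fell with Y27632. Among those that fell with conditioned neuronal medium, Itga2 and Lair1 had orientation means of opposite sign. Itga1, the alpha subunit of a collagen-binding integrin, fell with conditioned neuronal medium to -0.91 ± 0.51, and its partner Itgb1 fell with Y27632 to -1.30 ± 0.36. Adgrg1, a receptor for collagen III in the developing brain, fell to -0.48 ± 0.30 with conditioned neuronal medium and rose to 1.23 ± 0.72 with Y27632.
Of 13 genes of collagen degradation and its inhibitors, 4 rose and 4 fell with conditioned neuronal medium and 5 rose and 1 fell with Y27632. With conditioned neuronal medium the orientation means had opposite signs for Mmp13, which rose, and for Mmp8, Mmp9 and Timp1, which fell. Cathepsin K (Ctsk), the protease inhibitor Timp3 and the collagenase Mmp8 rose with Y27632 to 1.71 ± 1.03, 1.29 ± 0.48 and 1.12 ± 0.76, whereas the gelatinase Mmp2 fell with conditioned neuronal medium to -0.61 ± 0.54. Of 13 genes of matrix proteins that bind collagen, 1 rose and 6 fell with conditioned neuronal medium and 3 rose and 3 fell with Y27632. Of those called with Y27632, Prelp and Sparc had orientation means of opposite sign. Nid2, which links basement membrane networks, fell to -1.21 ± 0.96 with conditioned neuronal medium and rose to 1.31 ± 1.36 with Y27632. The orientation means of Nid2 with Y27632 were 0.29 in Cy3 and 2.33 in Cy5. The leucine-rich repeat gene Prelp fell to -1.30 ± 0.92 with conditioned neuronal medium and stood at 0.80 ± 0.96 with Y27632. Its orientation means with Y27632 were -0.07 in Cy3 and 1.67 in Cy5. Ogn, of the same protein family, rose to 1.10 ± 0.90 with conditioned neuronal medium, and Fmod, a regulator of fibril width, rose to 1.23 ± 0.33 with Y27632.

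**Figure D4:**
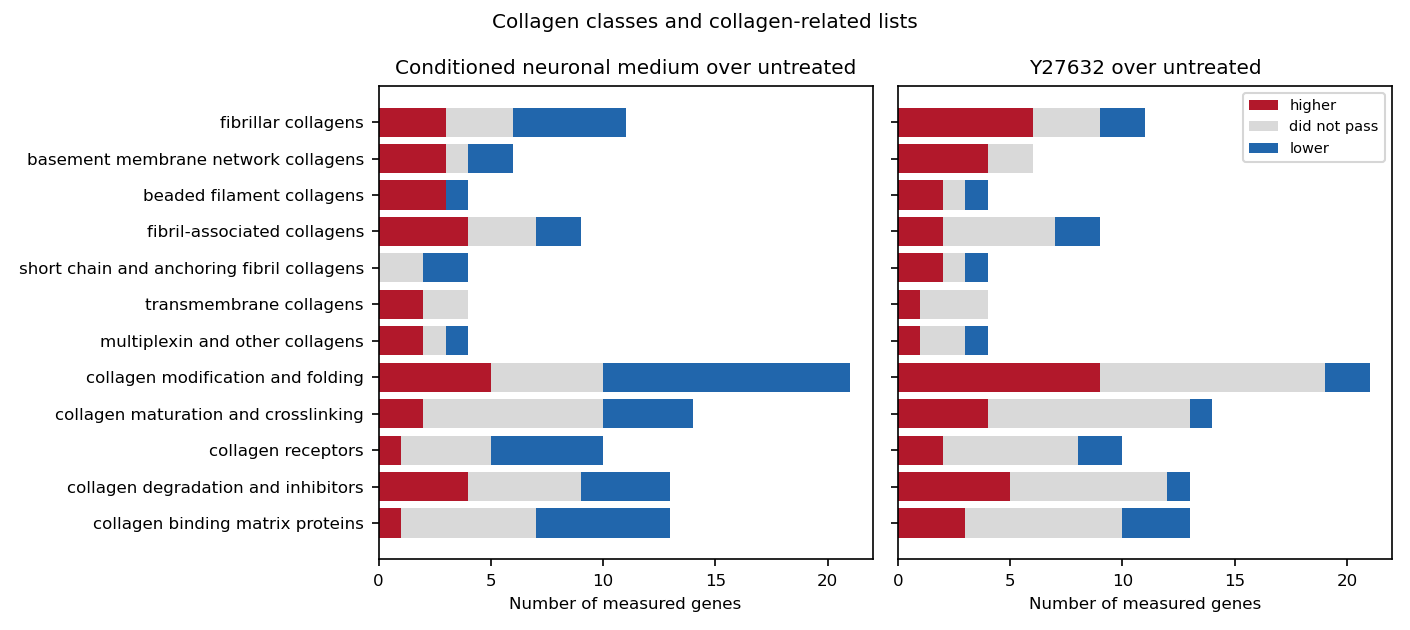
Bars give the number of measured genes (horizontal axis) of each collagen class and collagen-related list that were higher, did not pass or were lower at an adjusted p under 0.05, with each treatment over untreated. Of the 21 genes of modification and folding, 11 were lower with conditioned neuronal medium (beside 36.7% of all genes) and 9 were higher with Y27632 (beside 20.5% of all genes). Calls whose orientation means had opposite signs are included.

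Markers of cells that could contribute collagen RNA were counted beside these results. With ratios alone their level could not be read, so that the presence of such cells was not tested. The authors describe Oli-neu as a pure oligodendroglial culture. Of 10 fibroblast markers 2 rose and 5 fell with conditioned neuronal medium (median -0.25 SD units), and 2 rose and 1 fell with Y27632 (median 0.11), beside 27.6% up and 36.7% down of all genes with conditioned neuronal medium and 20.5% up and 19.5% down with Y27632. Of 8 endothelial markers 1 rose and 5 fell with conditioned neuronal medium, and 1 rose and 0 fell with Y27632. Of 6 pericyte markers 1 rose and 3 fell with conditioned neuronal medium, and 1 rose and 2 fell with Y27632. Markers of astrocytes stood at 1 up and 3 down of 6 with conditioned neuronal medium and at 4 up and 0 down with Y27632, and those of neurons at 5 up and 2 down of 8 with conditioned neuronal medium and at 1 up and 5 down with Y27632. Of 4 Schwann cell markers 1 rose and 2 fell with conditioned neuronal medium, and 1 rose and 0 fell with Y27632, and of 5 microglia markers 0 rose and 2 fell with conditioned neuronal medium, and 1 rose and 0 fell with Y27632. Of 9 markers of the oligodendrocyte lineage, to which the cell line belongs, 8 rose and 1 fell with conditioned neuronal medium, and 8 rose and 0 fell with Y27632. Among all these marker calls, the orientation means had opposite signs with conditioned neuronal medium for Pecam1, Emcn, Anpep, Tubb3, Syn1 and Cdh19. With Y27632 they did so for Twist2, Cldn5, Des, Notch3, Anpep, Slc1a3, Tubb3, Snap25, Syt1, Map2 and Cdh19. All pericyte calls with Y27632 were thus of this kind. Fewer cells of a type and less RNA per cell cannot be told apart in such samples, and the part of other cells in the values of the collagen chain genes was not tested.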

How the data were processed

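RNA of Oli-neu cells was amplified and hybridised by the authors on 12 Agilent arrays with 2 colours. The deposited values are scores, standardized log ratios of the channels that the authors made after replacing saturated features and loess normalization. Every array has an SD of 1. All signs were turned, so that positive values mean higher in treated cells. Of 44290 features 3060 had no value, 31700 of the measured ones named 1 gene, 47 several and 9483 none, and 31906 of 32089 annotated probes were named through the gene number with current symbols (GRCm38.p6). Features of a gene were averaged. The experiments were fitted separately in limma 3.58.1 (R 4.3.3) with an intercept and a dye term, and the difference on all 12 arrays with a dye term in each treatment. P-values were adjusted by Benjamini-Hochberg over 19087 genes or 41230 features. They rest on the spread within a dye orientation, whereas the SDs printed also hold the difference between orientations. The number of arrays limits the precision. The script was tested on simulated data.
Members and lists were chosen with earlier results of these data known. Members were described in full where they passed with at least 1 SD unit, where features differed by over 2 SD units, or as chains of collagens I, IV and VI, and of each other list up to 4 genes with the smallest adjusted p per treatment were eligible. Alternatives were another centring or scaling of arrays, no dye term, a single dye orientation, the median or the furthest feature of a gene, no moderation (the methods' linear model), a size threshold, the replicate number as a block and leaving out each replicate.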

Additional observations from a re-analysis of the deposited data

Results flagged for a closer look

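In 4 of 84 groups of 6 arrays (42 members, both treatments) the highest or lowest array stood apart from the rest by more of the group's range than Dixon's test allows. Chance gives about 1 such group in 20 where the 6 arrays are draws from a single normal distribution. Each group here joins both dye orientations, so that this rate need not hold and the count was not judged by it. Col1a1 stood at 0.71 SD units on replicate 6 of Y27632, where the next array was at 0.01. Col26a1 stood at -1.91 on replicate 4 of Y27632, with the next array at -0.03. Col5a1 stood at -0.24 on replicate 3 of Y27632, with the next at -0.67. Col9a3 stood at 0.60 on replicate 5 of conditioned neuronal medium, with the next at 0.38.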

How the results depend on the processing

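Counts of collagen chain genes changed under several alternatives. With at least 1 SD unit required, 5 members were higher and 1 lower with conditioned neuronal medium, and 7 higher and 0 lower with Y27632. Without a dye term, 7 were lower with conditioned neuronal medium, 11 higher and 2 lower with Y27632, and 3 higher and 11 lower in the difference between the treatments. With the furthest feature of each gene alone, 12 were lower with Y27632 and the median with conditioned neuronal medium was 0.19. On the arrays with treated RNA in Cy3 alone 5 members were higher in the difference, and on those in Cy5 alone 6 were, while the median with Y27632 was 0.085 in Cy5.
Leaving out each replicate gave 16 to 18 higher and 11 to 13 lower with conditioned neuronal medium, with a median from -0.052 (without replicate 2) to 0.069. It gave 14 to 17 higher and 3 to 6 lower with Y27632, with a median from 0.19 to 0.21, and the count of lower genes was 4 without replicate 1 or 5 and 3 without replicate 6. In the difference it gave 7 to 9 higher and 17 to 19 lower. With the replicate number as a block, 9 members were higher and 18 lower in the difference, 8 and 18 of them shared with the fit without it. Same-numbered arrays did not deviate together (r from -0.03 to 0.08 over genes), so the numbers were not taken as pairs.
Among values called in all arrays or in a single dye orientation, 14 had the opposite sign in that orientation, and 0 reversed under the other alternatives. In Cy3 alone these were, with conditioned neuronal medium, Col10a1 at -0.67, Col4a1 at 0.056 and Col6a6 at 0.35. With Y27632 they were Col10a1 at -0.75, Col1a2 at -0.13 and Col5a3 at -0.10, and in the difference Col1a2 at 0.16 and Col4a4 at -0.11. In Cy5 alone they were Col23a1 at -0.28, Col4a5 at 0.24 and Col9a2 at -0.14 with conditioned neuronal medium, and Col23a1 at -0.076, Col28a1 at 0.085 and Col4a4 at -0.49 with Y27632. Over all members, called or not, the orientation means had opposite signs for 13 with conditioned neuronal medium and 19 with Y27632. Of 1806 single-gene values under all alternatives 1582 kept their side of the threshold, 170 lost a call and 40 gained a call. The causes were not tested beyond the construction of each alternative. The signal over background is unknown, so which features were too dim to measure cannot be said.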
